A study of Mus musculus with 28 samples.

Results

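The genes described here are the mouse chemokine ligands, taken as every protein-coding gene whose symbol starts with Ccl, Cxcl, Cx3cl or Xcl followed by a number. The rule gave 44 genes of 45318 gene rows (21896 of them protein-coding), with 37 on the assembled chromosomes and 7 on unplaced scaffolds, where they repeat *Ccl19*, *Ccl21* and *Ccl27* genes. Reads were counted for 34 of the 44 at the 3-day follow-up and for 35 at the 21-day follow-up, and 24 and 29 of them had enough counts to be tested. The rule used names alone and no measured value.

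RNA was sequenced from the left ventricular wall away from the infarct (the remote zone) of male Hsd:ICR(CD-1) mice, an outbred strain, with 1 mouse behind each of the 28 libraries. Myocardial infarction (MI) was induced by ligating the left anterior descending coronary artery at postnatal day 7 or 1, and SHAM mice were operated without it. The groups are 7d-MI + 3, 7d-SHAM + 3, 1d-MI + 3 and 1d-SHAM + 3 (n = 4 each), collected 3 days after the operation, and 7d-MI + 21, 7d-SHAM + 21, 1d-MI + 21 and 1d-SHAM + 21 (n = 3 each), collected after 21 days. No genetic change or drug treatment is given for any of these groups, and pups were kept in their litter with the dam throughout. The comparison asked of these data is how the ventricle responds to MI at an age when the heart still regenerates, day 1, and at an age when it no longer does, day 7.

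Chemokines are small secreted proteins that direct the movement of leukocytes through G protein-coupled receptors. CC chemokines mainly attract monocytes, macrophages, eosinophils and lymphocytes. CXC chemokines that carry the Glu-Leu-Arg (ELR) motif attract neutrophils through CXCR2, and those induced by interferon attract T cells through CXCR3. After an infarct in the adult mouse heart, resident and recruited cells secrete CCL2 and ELR CXC chemokines within hours, and CXCL12 acts on progenitor and lymphoid cells through CXCR4.

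In the mouse several chemokine genes lie in clusters. The *Cxcl1*, *Cxcl2*, *Cxcl3*, *Cxcl5* and *Cxcl15* genes lie together on chromosome 5, with *Cxcl9* and *Cxcl10* in a second group there, and *Ccl2*, *Ccl7*, *Ccl12*, *Ccl3*, *Ccl4*, *Ccl5*, *Ccl6* and *Ccl9* lie on chromosome 11. The sequence before the gene start is shown for the 3 neighbouring ELR genes and for *Cxcl10*, because all 4 carry matches to the kB motif, the site that NF-kB proteins recognise, and all 4 are among the genes that differ after MI below. They are RefSeq promoter sequence of the build GRCm38.p6, 5′ to 3′ on the strand of the gene, and end at the base before the gene start in the count files, or for *Cxcl3* 2 bases short of it, where the RefSeq window ends: *Cxcl1* chr5:90890995-90891240 (plus strand), *Cxcl2* chr5:90903649-90903870 (plus), *Cxcl3* chr5:90785851-90786100 (plus) and *Cxcl10* chr5:92348890-92349139 (minus). Capitals mark kB matches on either strand, which overlap each other where the motif reads the same on both, and in *Cxcl10* also a pair of GAAA separated by 2 bases, a motif of interferon response elements.
Cxcl1: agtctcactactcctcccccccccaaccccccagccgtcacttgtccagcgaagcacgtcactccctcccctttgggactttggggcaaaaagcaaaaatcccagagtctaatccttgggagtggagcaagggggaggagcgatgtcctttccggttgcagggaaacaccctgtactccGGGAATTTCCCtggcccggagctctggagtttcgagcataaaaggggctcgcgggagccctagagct
Cxcl2: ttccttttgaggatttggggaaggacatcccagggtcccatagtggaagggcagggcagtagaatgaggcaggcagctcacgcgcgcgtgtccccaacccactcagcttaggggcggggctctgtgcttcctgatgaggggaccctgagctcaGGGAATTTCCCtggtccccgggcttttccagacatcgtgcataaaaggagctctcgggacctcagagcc
Cxcl3: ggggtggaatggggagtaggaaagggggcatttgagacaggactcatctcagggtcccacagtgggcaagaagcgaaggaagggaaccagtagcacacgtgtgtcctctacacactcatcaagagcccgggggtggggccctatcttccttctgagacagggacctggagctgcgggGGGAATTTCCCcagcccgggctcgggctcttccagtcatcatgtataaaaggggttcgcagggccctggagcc
Cxcl10: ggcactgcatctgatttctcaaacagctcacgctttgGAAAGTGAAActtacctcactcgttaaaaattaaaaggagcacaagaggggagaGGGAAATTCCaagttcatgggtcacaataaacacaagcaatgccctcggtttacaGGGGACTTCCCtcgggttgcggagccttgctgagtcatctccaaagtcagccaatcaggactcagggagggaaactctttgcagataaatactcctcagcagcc

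Counted back from the last printed base as -1, the kB match starts at -67 in *Cxcl1*, -69 in *Cxcl2* and -73 in *Cxcl3*, and is the same run of letters in all 3. *Cxcl10* has kB matches from -159 and -104, the second an overlapping pair, and the GAAA pair from -213. A promoter was found in RefSeq for 27 of the 37 genes on chromosomes. Of these, 7 held a kB match (*Ccl1*, *Ccl9*, *Ccl20*, *Cxcl1*, *Cxcl2*, *Cxcl3* and *Cxcl10*), 3 held the GAAA pair (*Cxcl10*, *Cxcl14* and *Ccl19*) and 8 held TATAAA, all counted on both strands. Among 27025 mouse promoters of the same length the shares with a match were 7.01%, 3.04% and 13.0%. A match is a description of letters in a window, and no binding was measured. The printed genes were picked for having both a kB match and a change after MI, and a link between the motif and MI was not tested. *Ccl9* meets both conditions and is not printed. *Ccl3*, *Ccl6*, *Ccl12*, *Cx3cl1* and *Cxcl14* also rose in 7d-MI + 3, and their promoters held no kB match. No promoter was found for *Ccl2*, *Ccl4*, *Ccl7*, *Cxcl5* and *Cxcl16*, which rose there too.

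Libraries of the 3-day follow-up held 33077962 to 51942648 counts and those of the 21-day follow-up 40514177 to 168550985. Genes annotated as ribosomal RNA, with a few further ribosomal loci added by symbol, took 0.321% to 62.7% of the counts at 21 days. Values below are CPM, counts relative to a common library total, with library totals scaled by TMM (a trimmed mean of log ratios) within a follow-up, and CPM divided by the gene length in kilobases where genes are set against each other. Cardiomyocyte markers were present in this tissue, with none of 6 at 0 and a summed level of 13862 to 23484 CPM in 7d-MI + 3, 23684 to 26558 in the 7d-SHAM + 3 libraries, 10750 to 16126 in those of 1d-MI + 3 and 15412 to 19016 in those of 1d-SHAM + 3. Sample names start with an animal number prefix, and 7d-SHAM + 3 has 1 prefix, 1d-MI + 3 and 1d-SHAM + 3 have 2 each, and 7d-MI + 3 has 3, with none shared between groups. At 21 days each group has 1 prefix of its own, so that group and prefix cannot be told apart there. The p-values measure the spread between these mice within a group. For 7d-SHAM + 3 this is the spread within 1 prefix. As no prefix is shared, a difference between prefixes cannot be fully separated from one between groups at 3 days either. In these pieces of ventricle, more cells that make a chemokine and more of its RNA per cell cannot be told apart.

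After 3 days, MI at day 7 came with higher levels of most chemokine ligands that could be tested. Of 24, 15 rose and none fell in 7d-MI + 3 relative to 7d-SHAM + 3, where 34.0% of all 20345 genes tested passed in either direction and 19.8% were higher. The median log2 fold change of the 24 was 2.57, against 0.08 over all genes. Some members passed the filter on low counts through the groups where they are high: 5 of the 24 were above its minimum in no SHAM library of either age and 9 in no 7d-SHAM + 3 library (*Ccl3*, *Ccl4*, *Ccl5*, *Ccl22*, *Cxcl2*, *Cxcl3*, *Cxcl5*, *Cxcl10* and *Cxcl14*), and 7 were above it in every library. MI at day 1 raised 6 of the 24 and lowered none in 1d-MI + 3 relative to 1d-SHAM + 3, where 8.46% of all genes passed (median log2 fold change of the members 1.75, of all genes 0.06). None of these 6 passed in limma-voom with a random block on name prefix, where 10 ligands had an unadjusted p under 0.05 and 1.25% of all genes were called. With the 2 groups fitted alone in edgeR 1 ligand passed, *Ccl6*, with 0.826% of all genes. The plot of MI effects shows both comparisons gene by gene.

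**Figure D1:**
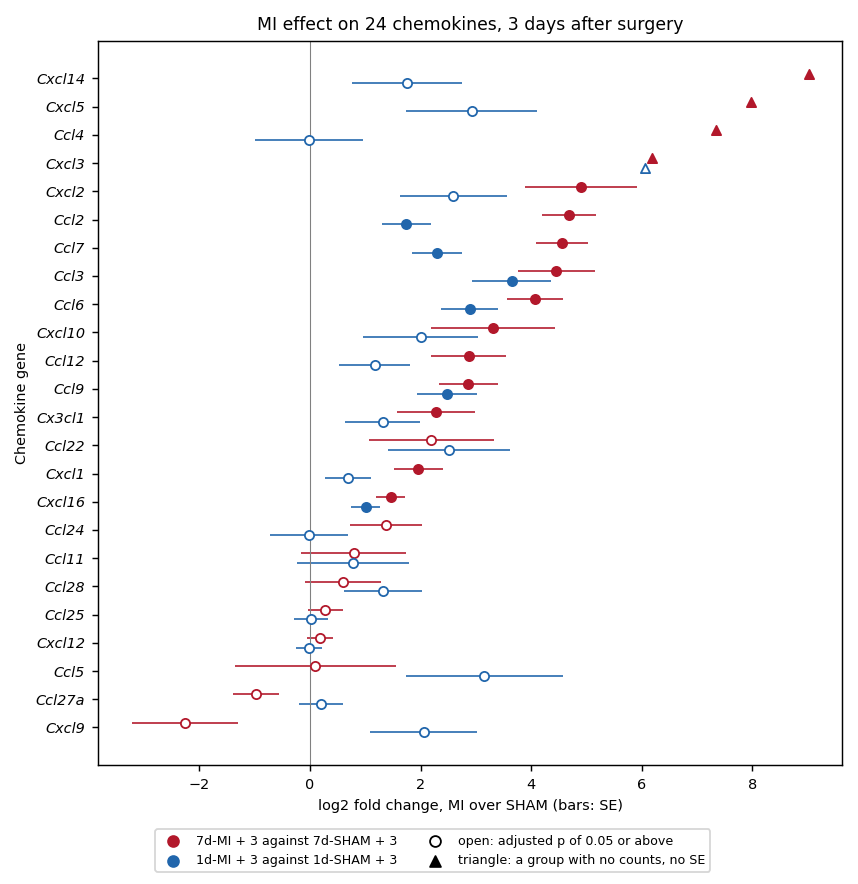
Log2 fold change with SE of each chemokine ligand tested at 3 days, for 7d-MI + 3 against 7d-SHAM + 3 and for 1d-MI + 3 against 1d-SHAM + 3; filled points passed the test, open points did not, and triangles mark genes with no count in the SHAM group, whose fitted value has no SE and is no bound. In the older mice 15 of 24 passed and in the younger mice 6 of 24, all of them above 0.

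All 3 ligands of CCR2 that could be tested rose at day 7. CCR2 is the receptor that draws inflammatory monocytes out of the bone marrow. *Ccl2* (ENSMUSG00000035385, chromosome 11, 82035571 to 82037453), the main CCR2 ligand, had 22.9, 27.4, 11.8 and 25.4 CPM in 7d-MI + 3, against 0.612, 0.867, 1.13 and 0.76 CPM in 7d-SHAM + 3. The younger hearts had 2.37, 7.42, 1.79 and 5.73 CPM in 1d-MI + 3, against 1.97, 0.55, 1.24 and 1.40 CPM in 1d-SHAM + 3. Every 7d-MI + 3 library lay above every other library of the follow-up, whereas 1d-MI + 3 overlapped its shams in 1 library. The log2 fold change was 4.68 (SE 0.49, adjusted p = 2.8e-06) at day 7 and 1.74 (SE 0.44, adjusted p = 0.027) at day 1 from the quasi-likelihood test of edgeR, with Benjamini-Hochberg adjusted p-values over all genes here and below. The call at day 1 was lost in 9 of 18 alternatives, among them limma-voom and leaving out replicate 2 or 4 of 1d-MI + 3 or replicate 3 or 4 of 1d-SHAM + 3.

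*Ccl7* (ENSMUSG00000035373, chromosome 11, 82045712 to 82047525) encodes a second CCR2 ligand, which also binds CCR1 and CCR3. It had 12.03, 6.67, 7.89 and 12.5 CPM in 7d-MI + 3, against 0.85, 0.248, 0.358 and 0.217 CPM in 7d-SHAM + 3. In the younger mice it had 1.42, 2.81, 0.596 and 2.07 CPM in 1d-MI + 3, against 0.398, 0.486, 0.222 and 0.266 CPM in 1d-SHAM + 3. Neither MI group overlapped its shams. The log2 fold change was 4.57 (SE 0.47, adjusted p = 7.7e-07) at day 7, the smallest p of any ligand, and 2.30 (SE 0.45, adjusted p = 0.0059) at day 1. *Ccl12* (ENSMUSG00000035352, chromosome 11, 82101845 to 82103400), a mouse CCR2 ligand close to CCL2 in function, had 14.6, 8.14, 5.09 and 9.83 CPM in 7d-MI + 3, against 2.99, 0.0619, 1.69 and 0.434 CPM in 7d-SHAM + 3. It rose by 2.87 on the log2 scale (SE 0.67, adjusted p = 0.0041) at day 7. At day 1 it had 2.22 to 4.27 CPM in 1d-MI + 3, against 0.599 to 2.23 CPM in 1d-SHAM + 3, groups that overlap in 1 library each, and did not pass (log2 fold change 1.17, SE 0.64, adjusted p = 0.25). *Ccl8*, the fourth of the list, is at 0 in every 7d-SHAM + 3 library and at most 0.0774 CPM in 7d-MI + 3, and was too low to test at 3 days.

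**Figure D2:**
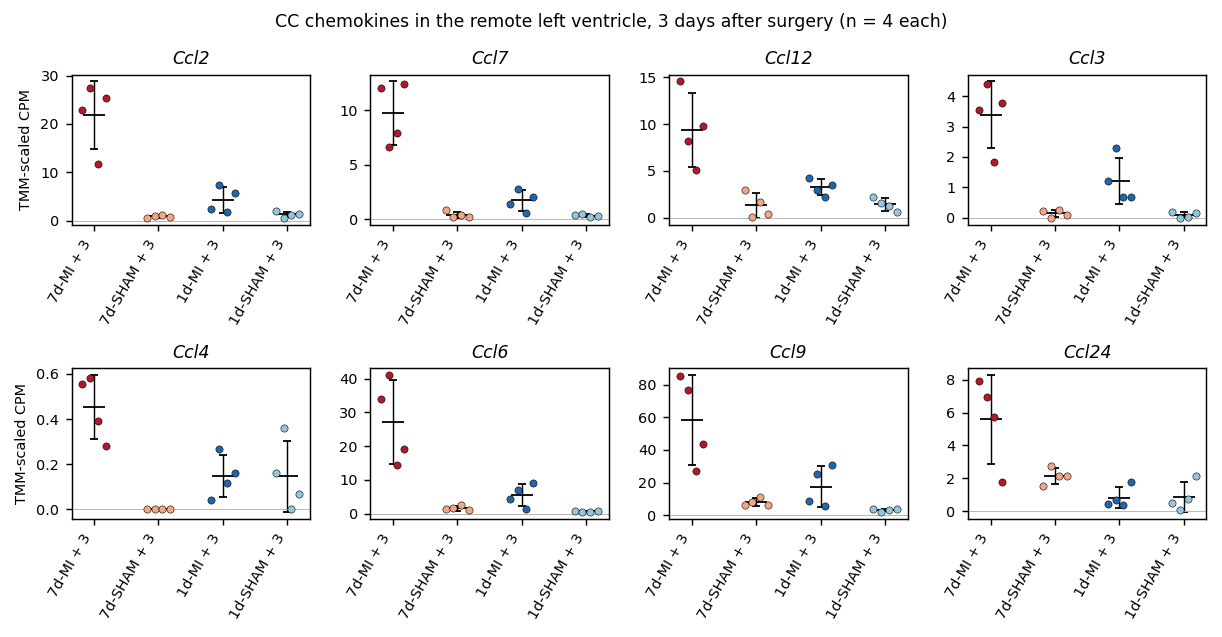
CPM (linear axis) of 8 CC ligands in each library of the 4 groups at 3 days; each point is 1 mouse, and bars give mean and SD (n = 4). *Ccl2*, *Ccl7* and *Ccl6* in 7d-MI + 3 lie above all libraries of the other 3 groups, and *Ccl4* is at 0 in 7d-SHAM + 3.

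Among *Ccl3*, *Ccl4*, *Ccl5*, *Ccl6* and *Ccl9*, which attract monocytes, macrophages and T cells, 4 of 5 rose at day 7 and 3 of 5 at day 1. *Ccl6* (ENSMUSG00000018927, chromosome 11, 83587882 to 83593087), a rodent CCR1 ligand of macrophages, had 33.9, 41.1, 14.3 and 19.2 CPM in 7d-MI + 3, against 1.36, 1.55, 2.56 and 0.977 CPM in 7d-SHAM + 3. It had 4.38, 7.01, 1.47 and 9.03 CPM in 1d-MI + 3, against 0.816, 0.613, 0.62 and 0.932 CPM in 1d-SHAM + 3. No MI library overlapped its own shams at either age, and all 4 of 7d-MI + 3 lay above all of 1d-MI + 3. The log2 fold change was 4.06 (SE 0.51, adjusted p = 2.1e-05) at day 7 and 2.89 (SE 0.51, adjusted p = 0.0052) at day 1.

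*Ccl9* (ENSMUSG00000019122, chromosome 11, 83572919 to 83578636), another rodent CCR1 ligand and in CPM the most counted chemokine of the infarcted older hearts, had 85.5, 76.9, 27.1 and 43.8 CPM in 7d-MI + 3, against 6.12, 8.17, 11.2 and 6.46 CPM in 7d-SHAM + 3. It had 8.86, 25.2, 5.32 and 30.8 CPM in 1d-MI + 3, against 3.46, 2.09, 3.28 and 3.80 CPM in 1d-SHAM + 3. Both MI groups stood clear of their shams. The log2 fold change was 2.87 (SE 0.53, adjusted p = 0.00088) at day 7 and 2.48 (SE 0.54, adjusted p = 0.017) at day 1. The day 1 call was lost in 8 of 18 alternatives. *Ccl3* (ENSMUSG00000000982, chromosome 11, 83647844 to 83649355), the macrophage inflammatory protein MIP-1alpha that binds CCR1, had 3.53, 4.41, 1.84 and 3.77 CPM in 7d-MI + 3, against 0.238, 0, 0.256 and 0.109 CPM in 7d-SHAM + 3. It had 1.21, 2.30, 0.675 and 0.689 CPM in 1d-MI + 3, against 0.179, 0, 0.0443 and 0.167 CPM in 1d-SHAM + 3. The groups did not overlap at either age, with an effect of 4.46 on the log2 scale (SE 0.70, adjusted p = 6.1e-05) at day 7 and 3.65 (SE 0.71, adjusted p = 0.0056) at day 1.

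*Ccl4* (ENSMUSG00000018930, chromosome 11, 83662584 to 83664683), the macrophage inflammatory protein MIP-1beta, differed between the ages already in the shams. It had 0.557, 0.58, 0.392 and 0.282 CPM in 7d-MI + 3 and no count in any 7d-SHAM + 3 library. It was at least 20.8-fold higher in 7d-MI + 3 against the level of 3 counts over the 7d-SHAM + 3 libraries together (adjusted p = 0.0017). In the younger mice it had 0.0419, 0.268, 0.119 and 0.159 CPM in 1d-MI + 3, against 0.159, 0.359, 0 and 0.0666 CPM in 1d-SHAM + 3, with overlapping groups (log2 fold change -0.01, SE 0.98, adjusted p = 0.99). *Ccl5*, the chemokine RANTES of T cells, had 0.335, 0.29, 0.238 and 0.212 CPM in 1d-MI + 3, above the 0 to 0.0846 CPM of 1d-SHAM + 3, and 0 to 0.135 CPM in 7d-MI + 3, against 0 to 0.154 CPM in 7d-SHAM + 3. It passed neither test (adjusted p = 0.15 at day 1 and 0.999 at day 7).

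*Cxcl1*, *Cxcl2*, *Cxcl3* and *Cxcl5*, the ELR CXC ligands with enough counts, rose in 7d-MI + 3. *Cxcl2*, *Cxcl3* and *Cxcl5* were above the filter minimum in no SHAM library, so that they could be tested only because they are high after MI. Their adjusted p in 1d-MI + 3 was 0.067 to 0.28, and that of the difference of MI effects between the ages was 0.13 or above for each. *Cxcl1* (ENSMUSG00000029380, chromosome 5, 90891241 to 90893115), a neutrophil attractant whose promoter is printed above, had 1.65, 1.99, 1.96 and 0.911 CPM in 7d-MI + 3, against 0.612, 0.248, 0.487 and 0.326 CPM in 7d-SHAM + 3. It had 0.796, 1.99, 1.95 and 0.778 CPM in 1d-MI + 3, against 0.756, 1.33, 0.576 and 0.733 CPM in 1d-SHAM + 3, so that the infarcted hearts of both ages reached like levels while the 7d-SHAM + 3 libraries lay lower than 1d-SHAM + 3 in all but 1. The log2 fold change was 1.96 (SE 0.44, adjusted p = 0.0016) at day 7 and 0.69 (SE 0.42, adjusted p = 0.28) at day 1, where the groups overlap.

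*Cxcl2* (ENSMUSG00000058427, chromosome 5, 90903871 to 90905938), the CXCR2 ligand MIP-2, had 3.40, 2.92, 0.333 and 0.391 CPM in 7d-MI + 3, against 0, 0, 0.102 and 0.109 CPM in 7d-SHAM + 3. The 2 high and 2 low infarcted libraries come from different prefixes, the low ones sharing 1. It had 0.293, 0.737, 0.318 and 0.177 CPM in 1d-MI + 3, against 0.0398, 0.0846, 0 and 0.133 CPM in 1d-SHAM + 3. The groups did not overlap at either age, but with an effect of 4.91 on the log2 scale (SE 1.01, adjusted p = 0.00078) at day 7 and 2.59 (SE 0.97, adjusted p = 0.095) at day 1 the test passed at day 7 alone; the difference between ages was not called (adjusted p = 0.31). *Cxcl5* (ENSMUSG00000029371, chromosome 5, 90759360 to 90761624), the epithelial and stromal CXCR2 ligand LIX, had 0.483, 0.619, 1.29 and 0.434 CPM in 7d-MI + 3 and no count in 7d-SHAM + 3, at least 32.4-fold higher (adjusted p = 0.0013). It had 0.168, 0.581, 0.0397 and 0.141 CPM in 1d-MI + 3, against 0.106 CPM in 1 library of 1d-SHAM + 3 and 0 in the other 3 (adjusted p = 0.12).

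*Cxcl3* (ENSMUSG00000029379, chromosome 5, 90786103 to 90789600), the lowest of the called CXCR2 ligands, had 0.223, 0.309, 0.274 and 0 CPM in 7d-MI + 3 and no count in 7d-SHAM + 3. It had 0.209, 0.246, 0 and 0.283 CPM in 1d-MI + 3 and no count in 1d-SHAM + 3. Each MI group thus had 3 libraries with counts and 1 without, and was at least 9.25-fold higher than its shams at day 7 (adjusted p = 0.03) and at least 10.6-fold higher at day 1 (adjusted p = 0.067). The call at day 7 was lost in 9 of 15 alternatives, DESeq2 and limma-voom among them. *Cxcl15*, the lung chemokine lungkine, is the fifth of the list and was too low to test at 3 days. It had 3.21 CPM in replicate 3 of 7d-MI + 3 and at most 0.0434 CPM in the other 3. The summed level of 5 lung epithelium markers was 10.5 CPM in that same library and 0 to 0.304 CPM in the other 3, with *Scgb1a1* at 0 in all 4, and their part in the *Cxcl15* value was not tested.

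**Figure D3:**
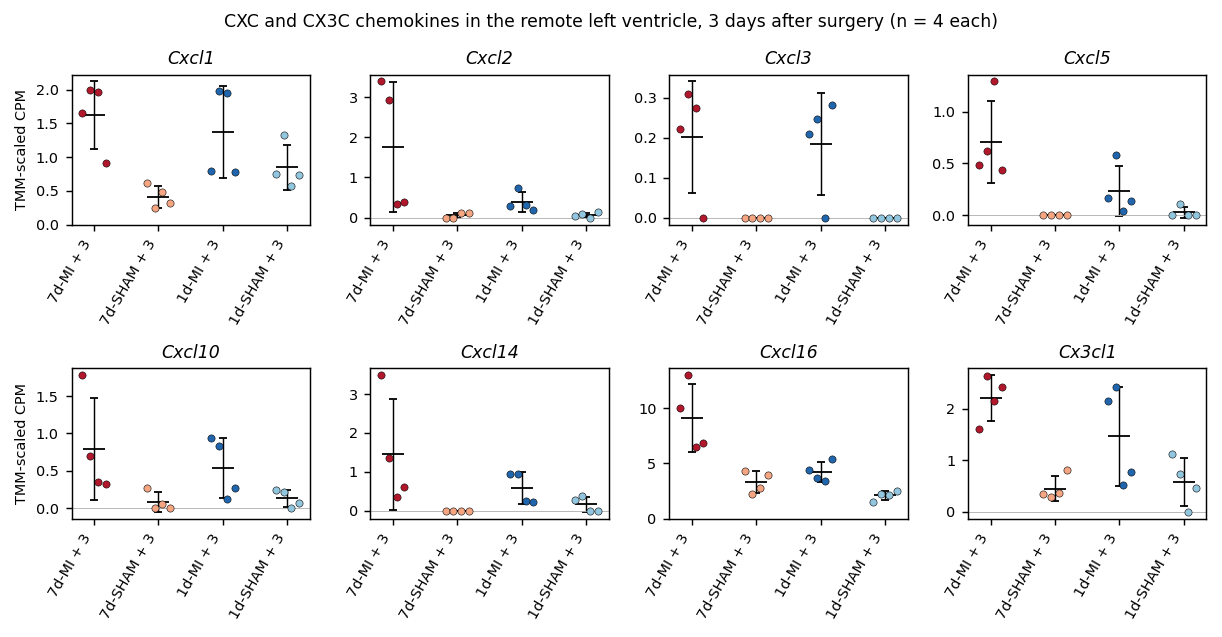
CPM (linear axis) of 7 CXC ligands and *Cx3cl1* in each library of the 4 groups at 3 days; each point is 1 mouse, and bars give mean and SD (n = 4). *Cxcl3*, *Cxcl5* and *Cxcl14* have no count in 7d-SHAM + 3, and *Cxcl2* in 7d-MI + 3 falls into 2 libraries near 3 CPM and 2 below 0.4 CPM.

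The interferon-induced ligands did not rise as a group. *Cxcl10* (ENSMUSG00000034855, chromosome 5, 92346638 to 92348889), a CXCR3 ligand that attracts T cells and whose promoter above carries both motifs, had 1.78, 0.696, 0.353 and 0.325 CPM in 7d-MI + 3, against 0.272, 0, 0.0512 and 0 CPM in 7d-SHAM + 3 (log2 fold change 3.31, SE 1.12, adjusted p = 0.027). That call was lost in 5 alternatives, among them leaving out replicate 1 of 7d-MI + 3. The exons of *Cxcl10* share 133 bases with *Art3* on the opposite strand, which was lower in 7d-MI + 3 (35.0 ± 2.5 CPM, SD, n = 4) than in 7d-SHAM + 3 (105 ± 6.4 CPM). *Cxcl9* (ENSMUSG00000029417, chromosome 5, 92321347 to 92328079), induced by interferon-gamma and a ligand of the same receptor, had 2.00, 1.12, 0.744 and 1.48 CPM in 7d-MI + 3, against 7.41, 4.52, 11.9 and 1.82 CPM in 7d-SHAM + 3. The groups overlap in 1 library each, and with an effect of -2.26 on the log2 scale (SE 0.96, adjusted p = 0.09) *Cxcl9* did not pass, although DESeq2, the fit without the filter and the fit of the pair of groups alone called it. In the younger mice *Cxcl9* had 13.2, 0.469, 1.09 and 1.63 CPM in 1d-MI + 3, against 1.39, 1.73, 0.222 and 0.533 CPM in 1d-SHAM + 3 (adjusted p = 0.19), where 1 library decides the mean.

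The chemokines made as membrane-bound proteins, CXCL16 and CX3CL1, rose together at day 7. *Cxcl16* (ENSMUSG00000018920, chromosome 11, 70453983 to 70459984), a scavenger receptor and the ligand of CXCR6, had 10.01, 13.1, 6.52 and 6.88 CPM in 7d-MI + 3, against 4.35, 2.198, 2.77 and 3.96 CPM in 7d-SHAM + 3. It had 4.38, 3.69, 3.37 and 5.44 CPM in 1d-MI + 3, against 1.51, 2.22, 2.15 and 2.53 CPM in 1d-SHAM + 3. Its change was the smallest among those called in both age groups, with an effect of 1.46 on the log2 scale (SE 0.26, adjusted p = 0.00018) at day 7 and 1.01 (SE 0.26, adjusted p = 0.024) at day 1. Its exons share 552 bases with *Zmynd15* on the other strand, at 1.60 ± 0.46 CPM in 7d-MI + 3 and 0.629 ± 0.19 CPM in 7d-SHAM + 3. *Cx3cl1* (ENSMUSG00000031778, chromosome 8, 94772009 to 94782423), the ligand fractalkine, had 1.60, 2.63, 2.15 and 2.43 CPM in 7d-MI + 3, against 0.34, 0.279, 0.358 and 0.814 CPM in 7d-SHAM + 3 (log2 fold change 2.28, SE 0.71, adjusted p = 0.018). The day 1 groups, at 0.516 to 2.41 CPM in 1d-MI + 3, against 0 to 1.11 CPM in 1d-SHAM + 3, overlap (adjusted p = 0.22).

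*Cxcl14* (ENSMUSG00000021508, chromosome 13, 56288647 to 56296551), a conserved chemokine of epithelia and fibroblasts, had 3.49, 1.35, 0.353 and 0.607 CPM in 7d-MI + 3 and no count in 7d-SHAM + 3. It was at least 66.6-fold higher (adjusted p = 0.0008), the largest such bound among the ligands. In 1d-MI + 3 it had 0.943, 0.938, 0.238 and 0.23 CPM, against 0.279, 0.381, 0 and 0 CPM in 1d-SHAM + 3 (log2 fold change 1.76, SE 1.00, adjusted p = 0.26).

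The other ligands showed no called change after MI at either age. *Cxcl12* (ENSMUSG00000061353, chromosome 6, 117168535 to 117181367), made by stromal and endothelial cells for CXCR4, had 37.3, 35.5, 59.9 and 33.8 CPM in 7d-MI + 3, against 32.4, 37.5, 37.2 and 40.3 CPM in 7d-SHAM + 3. It had 26.7, 26.2, 12.6 and 12.1 CPM in 1d-MI + 3, against 18.8, 23.0, 18.3 and 18.2 CPM in 1d-SHAM + 3. The groups overlap at both ages, with log2 fold changes of 0.18 (SE 0.23) and -0.02 (SE 0.24). *Ccl24* (ENSMUSG00000004814, chromosome 5, 135569937 to 135573049), an eosinophil attractant acting on CCR3, had 7.89, 6.94, 5.72 and 1.78 CPM in 7d-MI + 3, against 1.56, 2.72, 2.13 and 2.17 CPM in 7d-SHAM + 3 (log2 fold change 1.38, SE 0.65, adjusted p = 0.12). *Ccl27a* (ENSMUSG00000073888, chromosome 4, 41769467 to 41774247), a skin chemokine, had 0.52, 0.348, 0.353 and 0.607 CPM in 7d-MI + 3, against 0.884, 0.743, 0.973 and 0.977 CPM in 7d-SHAM + 3. It was lower in each infarcted library without passing (log2 fold change -0.97, SE 0.42, adjusted p = 0.08). *Ccl11*, *Ccl22*, *Ccl25* and *Ccl28* had adjusted p of 0.15 to 0.57 at day 7 and 0.15 to 0.97 at day 1.

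Several ligands were higher in infarcted hearts of the older mice than in infarcted hearts of the younger mice. In 7d-MI + 3 relative to 1d-MI + 3, 9 of 24 were higher and 2 lower, together 45.8%, close to the 43.0% of all genes that passed. The members' median log2 fold change was 1.21, against -0.13 over all genes. *Ccl7* differed by 2.50 on the log2 scale (SE 0.40, adjusted p = 0.00011), *Ccl2* by 2.34 (SE 0.42, adjusted p = 0.00052) and *Ccl6* by 2.31 (SE 0.46, adjusted p = 0.0012), all without overlap. *Ccl24* was higher by 2.77 (SE 0.68, adjusted p = 0.0047), with 0.44, 0.692, 0.357 and 1.75 CPM in 1d-MI + 3, each below the lowest of 7d-MI + 3. *Cxcl16* differed by 1.11 (SE 0.25, adjusted p = 0.0019) and *Cxcl12* by 1.10 (SE 0.24, adjusted p = 0.0014). Beside *Cxcl12*, fibroblast markers summed to 2279 to 2519 CPM in 7d-MI + 3, against 603 to 1006 CPM in 1d-MI + 3, and endothelium markers to 288 to 450 CPM in 7d-MI + 3, against 162 to 254 CPM in 1d-MI + 3. All 5 of each list were higher in 7d-MI + 3, none was at 0, and their part in the *Cxcl12* value was not tested. *Ccl9*, *Cxcl2* and *Ccl3* were higher by 1.73, 2.21 and 1.48 (adjusted p = 0.014, 0.038 and 0.044) with overlapping groups, and the calls of *Ccl3* and *Cxcl2* were lost in 9 and 8 of 16 alternatives.

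The 2 lower ones were *Ccl25* and *Ccl27a*. *Ccl25* (ENSMUSG00000023235, chromosome 8, 4325210 to 4360020), known from thymus and gut as the CCR9 ligand, had 0.854, 0.832, 0.96 and 0.824 CPM in 7d-MI + 3, against 1.93, 2.55, 1.39 and 1.77 CPM in 1d-MI + 3 (log2 fold change -1.13, SE 0.31, adjusted p = 0.0065). *Ccl27a* had 0.607, 2.12, 0.794 and 1.04 CPM in 1d-MI + 3, its lowest library being level with the highest of 7d-MI + 3 (log2 fold change -1.32, SE 0.41, adjusted p = 0.015). *Ccl25* shares 204 exon bases with *Elavl1* on the other strand, which was at 32.4 ± 5.6 CPM in 7d-MI + 3 and 20.5 ± 2.9 CPM in 1d-MI + 3. *Ccl27a* shares 8 bases with *Il11ra1*.

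The sham hearts already differed by age in some of these genes. In 7d-SHAM + 3 relative to 1d-SHAM + 3, 1 of 24 was higher and 3 lower, together 16.7%, with 20.3% of all genes called (median log2 fold change of the members -0.06, of all genes -0.13). The called share was thus no higher than over all genes. *Cxcl12* was higher by 0.91 (SE 0.24, adjusted p = 0.013) and *Ccl25* was lower, with 0.748, 0.929, 0.512 and 0.679 CPM in 7d-SHAM + 3, against 2.01, 1.61, 1.17 and 2.76 CPM in 1d-SHAM + 3 (log2 fold change -1.39, SE 0.32, adjusted p = 0.0049). *Cxcl12* and *Ccl25* thus differed by age in the same direction with and without MI. *Ccl4* was at least 6.71-fold lower (adjusted p = 0.021) and *Cxcl14* at least 7.56-fold lower (adjusted p = 0.041) in 7d-SHAM + 3, where neither had a count. Both had their counts in 1d-SHAM + 3 mostly in replicates 1 and 2, which share a prefix, and both calls were lost with limma-voom or without replicate 2 of 1d-SHAM + 3. The summed level of 1341 olfactory and vomeronasal receptor genes, which the heart is not known to use, was 60.7 and 60.8 CPM in those 2 libraries. It was 23.6 and 20.2 CPM in the other 2 and 15.3 to 20.8 CPM in the 7d groups. In 1d-MI + 3, the group of the day 1 MI effects and of the *Ccl25* and *Ccl27a* calls above, it was 80.5, 120, 35.6 and 47.3 CPM. Its part in the *Ccl4* and *Cxcl14* counts was not tested beyond subtracting it per kilobase. That kept the *Ccl4* call and lost that of *Cxcl14*.

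Whether MI acted differently at the 2 ages was tested as the difference of the MI effects. Of 24 ligands 4 passed, all with the larger MI effect at day 7. That is 16.7%, close to the 13.1% of all genes that passed (median of the members 0.89, of all genes 0.03). The MI effect on *Ccl2* was larger at day 7 by a log2 difference of 2.94 (SE 0.64, adjusted p = 0.0072) and that on *Ccl7* by 2.27 (SE 0.64, adjusted p = 0.024). *Ccl4* (adjusted p = 0.018) and *Cxcl14* (adjusted p = 0.037) passed as well, both on the strength of empty 7d-SHAM + 3 libraries, so that their fitted differences have no SE. For *Ccl6*, *Ccl9*, *Ccl3* and *Cxcl16* the difference of effects was 1.18 (SE 0.69), 0.39 (SE 0.72), 0.81 (SE 1.02) and 0.45 (SE 0.36), none called. *Cxcl9* leaned the other way (log2 difference -4.32, SE 1.37, adjusted p = 0.055). The call of *Ccl2* was lost in 1 of 25 alternatives, the limma-voom fit that blocks on name prefix, and that of *Ccl7* in 8, among them leaving out replicate 1 or 2 of 1d-SHAM + 3 or replicate 2, 3 or 4 of 7d-SHAM + 3.

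Some receptors of these ligands rose in the same hearts. Of 18 conventional chemokine receptors 12 were tested, and 5 rose in 7d-MI + 3 relative to 7d-SHAM + 3, where 19.8% of all genes were higher. *Ccr2*, the receptor of CCL2 and CCL7, had 40.2, 40.5, 21.2 and 24.8 CPM in 7d-MI + 3, against 1.70, 0.805, 0.666 and 1.30 CPM in 7d-SHAM + 3 (log2 fold change 4.84, SE 0.57, adjusted p = 1.8e-05). *Ccr1* rose by 3.32 (SE 0.52, adjusted p = 0.00018) and *Cxcr2*, the receptor of the ELR ligands, by 2.98 (SE 0.72, adjusted p = 0.0029). At day 1 *Ccr2* rose as well (log2 fold change 1.84, adjusted p = 0.038), and its MI effect was larger at day 7 (log2 difference 3.00, adjusted p = 0.015). In 7d-MI + 3 relative to 1d-MI + 3, 5 were higher, among them *Cxcr4* by 1.65 (SE 0.29, adjusted p = 0.0002) and *Cx3cr1* by 1.34 (SE 0.30, adjusted p = 0.002), and 1 lower. Over all genes 43.0% passed there in either direction, so that the number called does not set the receptors apart. Of 4 atypical receptors tested, which take up chemokines without G protein signalling, 2 were higher in 7d-MI + 3 than in 1d-MI + 3, *Ackr4* by 0.94 (SE 0.20) and *Ackr3* by 1.12 (SE 0.25) on the log2 scale. Both were also higher in 7d-SHAM + 3 than in 1d-SHAM + 3, by 0.98 (SE 0.20) and 1.36 (SE 0.25), as was *Cxcr4* by 1.20 (SE 0.29, adjusted p = 0.0076), and neither atypical receptor passed for MI at either age (adjusted p = 0.24 to 0.84). The platelet chemokine gene *Pf4*, which the naming rule leaves out, rose by 1.04 (SE 0.37, adjusted p = 0.037) in 7d-MI + 3, and *Ppbp* did not pass (adjusted p = 0.25).

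Cytokines that induce chemokines, and NF-kB feedback genes, were tested for 13 of 16 genes, of which 8 rose in 7d-MI + 3 relative to 7d-SHAM + 3. Over all genes 19.8% were higher there. *Il6* had 2.54, 4.54, 2.33 and 2.84 CPM in 7d-MI + 3 and no count in 7d-SHAM + 3, at least 140.6-fold higher (adjusted p = 1.2e-05). *Csf1*, the macrophage growth factor, rose by 1.54 on the log2 scale (SE 0.22), *Nfkbiz* by 1.85 (SE 0.29), *Tnfaip3*, an inhibitor induced by NF-kB, by 1.41 (SE 0.25) and *Il1b* by 2.71 (SE 0.52), with adjusted p between 1.8e-05 and 0.00037. At day 1, 2 of the 13 rose, *Il6* (log2 fold change 3.71, adjusted p = 0.011) and *Tnfaip3* (0.91, adjusted p = 0.032).

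Many, but not all, markers of neutrophils, monocytes and macrophages rose in 7d-MI + 3 relative to 7d-SHAM + 3, and fewer rose at day 1. The counts of markers stand beside 34.0% of all genes called at day 7, with 19.8% higher, and 8.46% called at day 1. The summed level of 10 neutrophil markers was 38.3 to 86.3 CPM in 7d-MI + 3, 3.10 to 5.30 in the 7d-SHAM + 3 libraries, 22.5 to 29.5 in those of 1d-MI + 3 and 4.96 to 9.89 in those of 1d-SHAM + 3, and 8 of the 9 tested rose at day 7 and 4 of 9 at day 1. The sum of 6 monocyte markers was 467 to 598 CPM in 7d-MI + 3, 125 to 150 in the 7d-SHAM + 3 libraries, 117 to 173 in those of 1d-MI + 3 and 119 to 158 in those of 1d-SHAM + 3, with 5 and 1 of 6 risen and *F10* at 0 in 7d-SHAM + 3. The monocyte sums of 1d-MI + 3 overlapped those of 1d-SHAM + 3. The sum of 10 macrophage markers was 217 to 294 CPM in 7d-MI + 3, 89.7 to 136 in the 7d-SHAM + 3 libraries, 47.2 to 100 in those of 1d-MI + 3 and 36.0 to 53.8 in those of 1d-SHAM + 3, with 6 and 1 of 10 risen. *Lyve1* (log2 fold change -0.98, adjusted p = 0.069), *Timd4* (-0.52), *Cd163* (-0.08) and *Folr2* (0.43) did not pass at day 7. No other marker of these 3 lists was at 0 in a group. The 6 T cell markers summed to 1.73 to 2.94 CPM in 7d-MI + 3, against 2.04 to 4.15 CPM in 7d-SHAM + 3, and 3 of 4 thymocyte markers tested were lower in 7d-MI + 3 (sums of 1.13 to 2.62 CPM there, against 5.20 to 8.85 CPM in 7d-SHAM + 3). The 5 NK cell markers summed to 0.174 to 1.45 CPM in 7d-MI + 3, against 0.109 to 0.307 CPM in 7d-SHAM + 3, where *Ncr1*, *Prf1* and *Nkg7* were at 0. Of 5 fibroblast markers 4 rose and 1 fell, with sums of 2279 to 2519 CPM in 7d-MI + 3, against 1441 to 1640 CPM in 7d-SHAM + 3. The part of these cells in the ligand values was not tested.

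Levels per kilobase put the ligands of monocyte receptors first in infarcted older hearts and CXCL12 first in their shams. In 7d-MI + 3 the order was *Ccl2* at 19.2 ± 6.1, *Ccl9* at 19.2 ± 9.0, *Ccl12* at 17.5 ± 7.4, *Ccl6* at 15.1 ± 6.9 and *Ccl7* at 12.2 ± 3.6 CPM per kilobase (SD, n = 4), neighbours that do not differ beyond their spread, with *Cxcl12* next at 5.09 ± 1.5. In 7d-SHAM + 3 *Cxcl12* led at 4.50 ± 0.40 CPM per kilobase, followed by *Ccl9* at 2.62 ± 0.76 and *Ccl12* at 2.41 ± 2.5. In 1d-MI + 3 the order was *Ccl12* at 6.03 ± 1.6, *Ccl9* at 5.76 ± 4.1 and *Ccl2* at 3.80 ± 2.4, and in 1d-SHAM + 3 *Ccl12* at 2.63 ± 1.3, *Cxcl12* at 2.40 ± 0.28 and *Ccl2* at 1.13 ± 0.51. The summed level of all members was 87.9 to 140 CPM per kilobase in 7d-MI + 3, 15.2 to 23.5 in 7d-SHAM + 3, 17.7 to 46.0 in 1d-MI + 3 and 10.8 to 15.95 in 1d-SHAM + 3. *Cxcl12* made up 3.25% to 8.34% of that sum in 7d-MI + 3, against 18.5% to 32.5% in 7d-SHAM + 3, and *Ccl2* 11.8% to 22.4% in 7d-MI + 3, against 2.51% to 5.01% in 7d-SHAM + 3.

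**Figure D4:**
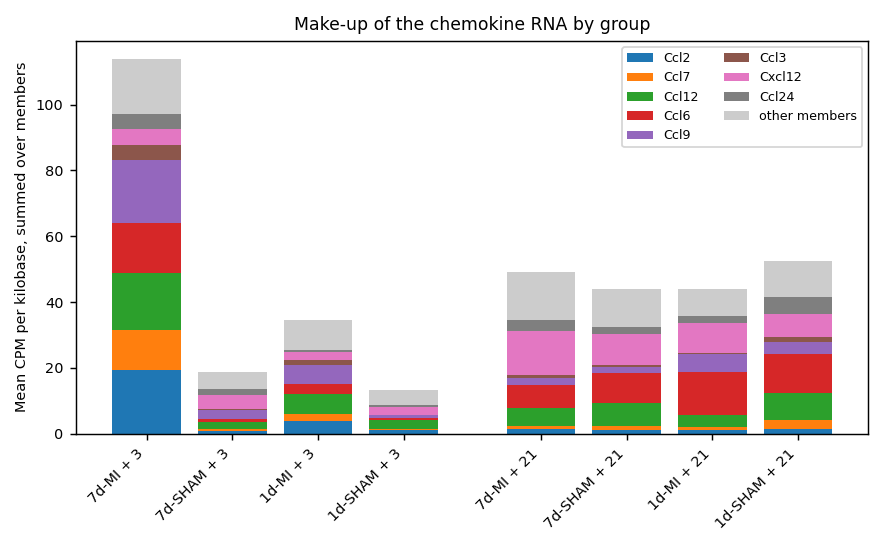
Mean CPM per kilobase of each group, summed over the chemokine ligands and stacked by gene, with 3 days and 21 days scaled apart; bars start at 0. The bar of 7d-MI + 3 is the tallest at 3 days, with a mean sum of 114 CPM per kilobase, against 18.8 in 7d-SHAM + 3.

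After 21 days no ligand passed in any comparison. In 7d-MI + 21 relative to 7d-SHAM + 21, 0 of 29 tested passed with edgeR and 3 had an unadjusted p under 0.05, where 0% of all 24646 genes were called and 4111 had such a p; DESeq2 and limma-voom called 0 as well. In 1d-MI + 21 relative to 1d-SHAM + 21, 0 of 29 passed with edgeR, 5 had an unadjusted p under 0.05, 0.0162% of all genes were called, and DESeq2 called 1, *Cxcl3*, and limma-voom 0. In 7d-MI + 21 relative to 1d-MI + 21 the numbers were 0 of 29 with edgeR, 6 unadjusted and 0.0325% of all genes, and between the shams and for the difference of MI effects 0 with edgeR, 4 and 3 unadjusted and 0% of all genes; DESeq2 and limma-voom called 0 in these 3. The members' median log2 fold changes were 0.08 for MI at day 7, -0.59 for MI at day 1 and 0.46 between the MI groups, beside -0.13, -0.11 and -0.02 over all genes. The biological coefficient of variation was 0.567 at this follow-up and 0.331 at 3 days.

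*Ccl2* and *Ccl7* stayed under 3 CPM in every library of the 21-day follow-up. *Ccl2* had 1.33, 1.45 and 1.64 CPM in 7d-MI + 21, against 0.703, 1.38 and 1.86 CPM in 7d-SHAM + 21, and 0.941, 2.46 and 0.69 CPM in 1d-MI + 21, against 1.76, 1.37 and 1.79 CPM in 1d-SHAM + 21. *Ccl7* had 0.792, 1.03 and 0.633 CPM in 7d-MI + 21, against 0.884, 1.38 and 0.755 CPM in 7d-SHAM + 21, and 0.235, 0.916 and 0.754 CPM in 1d-MI + 21, against 1.03, 2.34 and 2.95 CPM in 1d-SHAM + 21. In the younger mice *Ccl7* was below its shams without overlap but did not pass (edgeR log2 fold change -1.73, SE 0.55, adjusted p = 0.28). The 2 follow-ups were prepared with different library kits and instruments and scaled apart, and their levels are not compared by a test.

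**Figure D5:**
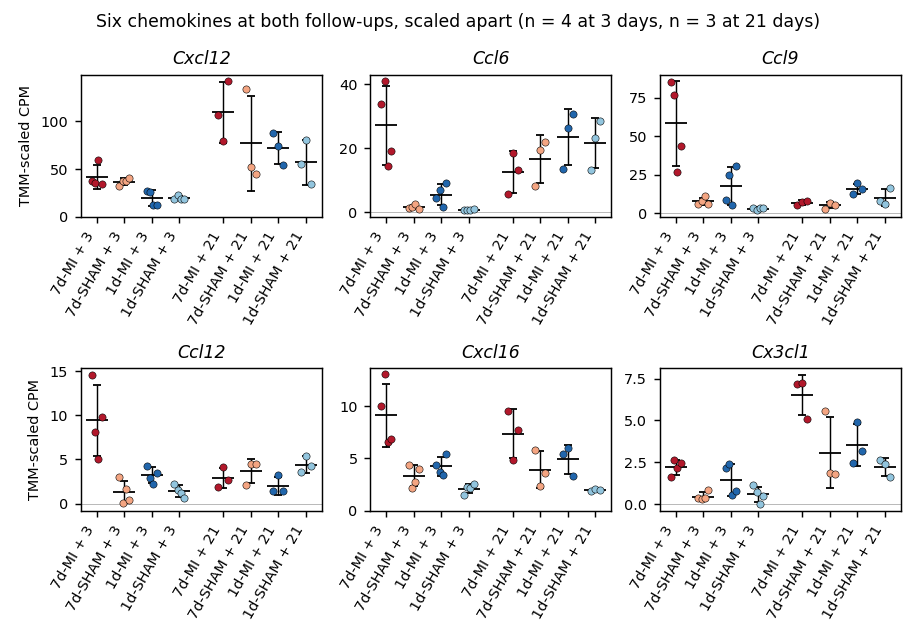
CPM (linear axis) of *Cxcl12*, *Ccl6*, *Ccl9*, *Ccl12*, *Cxcl16* and *Cx3cl1* in each library of all 8 groups, with the follow-ups scaled apart; each point is 1 mouse, and bars give mean and SD (n = 4 at 3 days, n = 3 at 21 days). At 21 days *Cxcl16* in 1d-MI + 21 lies above every 1d-SHAM + 21 library.

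*Cxcl12* or *Ccl6* came first in the order per kilobase after 21 days. *Cxcl12* led at 13.4 ± 3.9 in 7d-MI + 21 and 9.40 ± 6.0 in 7d-SHAM + 21 (SD, n = 3). *Ccl6* led at 13.1 ± 4.9 in 1d-MI + 21 and 12.05 ± 4.4 in 1d-SHAM + 21, where *Ccl12* came second at 8.20 ± 1.7. *Cxcl12* and *Ccl6* do not differ beyond their spread within any of these groups. *Ccl9* had 5.29, 7.23 and 8.31 CPM in 7d-MI + 21, against 12.5, 19.5 and 15.8 CPM in 1d-MI + 21, without overlap (log2 fold change -1.20, SE 0.41, adjusted p = 0.53). *Cxcl16* had 5.40, 5.997 and 3.32 CPM in 1d-MI + 21, against 1.90, 2.02 and 2.00 CPM in 1d-SHAM + 21, also without overlap (log2 fold change 1.31, SE 0.39, adjusted p = 0.28). *Cx3cl1* had 7.20, 7.24 and 5.11 CPM in 7d-MI + 21, against 5.56, 1.86 and 1.82 CPM in 7d-SHAM + 21 (log2 fold change 1.06, SE 0.44, adjusted p = 0.27). Leaving out replicate 1 of 7d-SHAM + 21 brought 4 ligands past the test in that comparison (*Ccl20*, *Cx3cl1*, *Cxcl12* and *Cxcl16*), 4 of 31 or 12.9%, beside 21.6% of all 27303 genes. The other 2 libraries of 7d-SHAM + 21 had 172 and 406 CPM of olfactory and vomeronasal receptor genes, replicate 1 had 10.1 CPM, and cardiomyocyte markers summed to 10350 and 7370 CPM in them and 20758 CPM in replicate 1. The 7d-MI + 21 libraries had 10.98 to 35.5 CPM of these receptor genes. In order of replicates they summed to 54.3, 122 and 146 CPM in 1d-SHAM + 21 and to 11.1, 21.7 and 58.5 CPM in 1d-MI + 21. The 1d-SHAM + 21 values of *Ccl7* above and *Cxcl3* below rise in the same order of replicates. The part of these receptor genes in the ligand values was not tested.

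*Cxcl3*, which rests on few counts, had the smallest p-value of the ligands in every 21-day comparison except 7d-MI + 21 against 7d-SHAM + 21. In that comparison *Cxcl3* was not among the 3 ligands with an unadjusted p under 0.05 in edgeR. It had 0.106, 0.259 and 0.198 CPM in 7d-MI + 21, against 0, 0.0537 and 0 CPM in 7d-SHAM + 21. In the younger mice it had 0, 0 and 0.0036 CPM in 1d-MI + 21, against 0.0551, 0.202 and 1.45 CPM in 1d-SHAM + 21. With 52 counts in 7d-MI + 21 and 3 in 7d-SHAM + 21 the ratio of pooled rates was 9.50 (95% interval 3.08 to 47.5, exact, covering counting error only), and with 1 count in 1d-MI + 21 and 73 in 1d-SHAM + 21 it was 0.0048 (0.00012 to 0.0276). Of those 73 counts 64 came from replicate 3 of 1d-SHAM + 21, and without that library, a choice made after seeing the data, the ratio was 0.0268 (0.00061 to 0.194). The difference of MI effects on *Cxcl3* had an unadjusted p of 0.00044 with edgeR and an adjusted p of 0.6. *Ccl8*, a CCR2 and CCR8 ligand tested at this follow-up alone, had 0.145, 0.744 and 0.158 CPM in 7d-MI + 21, against 0, 0.0436 and 0.0285 CPM in 1d-MI + 21 (adjusted p = 0.69). *Cxcl15* had no count in 7d-MI + 21 and 0.215 CPM in 1 of 3 libraries of 7d-SHAM + 21. *Ccl3* had 0.726, 0.533 and 0.93 CPM in 7d-MI + 21, against 0.16, 0.645 and 0.844 CPM in 7d-SHAM + 21, and 0.157, 0.654 and 0.395 CPM in 1d-MI + 21, against 0.716, 2.18 and 1.18 CPM in 1d-SHAM + 21.

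The remaining members were low or empty. *Ccl1*, *Ccl8*, *Ccl17*, *Cxcl13* and *Cxcl15* were tested at 21 days alone. *Ccl20*, *Ccl26*, *Cxcl17* and *Xcl1* had counts at both follow-ups without reaching the filter, *Ccl19* (39 counts) and *Ccl21a* (1 count) had counts at 21 days alone, and *Ccl21b* and *Ccl27b* had none. Of the 7 scaffold genes 1 had 2 counts and the others none, so that 8 of the 44 were at 0 in all 28 libraries. *Ccl19*, *Ccl21* and *Ccl27* exist in near-identical copies between which reads may be split, and their values are uncertain. *Cxcl13*, the B cell attractant of CXCR5, had 18.02 CPM in replicate 3 of 7d-MI + 3 and 0.0371 to 0.13 CPM in the other 3, and 5 B cell markers summed to 10.8 CPM in that library and 3.23 to 4.196 CPM in the other 3. Their part in that value was not tested.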

How the data were processed

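Counts per gene were available for 28 libraries, 1 mouse each. The authors deposited for each library a gene-level count, and beside it CPM, RPKM and the log2 of both; the counts were used, and the deposited RPKM served only to obtain gene lengths. The submitters' processing notes name TopHat2 2.0.11, Bowtie2 2.2.2, Cufflinks 2.2.1 and GRCm38; the counting tool, annotation release and strand setting were not given in the sources used here. Where exons of genes on opposite strands overlap, reads can therefore not be told apart. Libraries deposited as 2 lanes (1d-SHAM + 21, replicate 2, and 7d-SHAM + 21, replicate 3) were summed. 

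Genes were kept by filterByExpr (minimum count 10, and 15 in total), normalized by TMM and tested with edgeR 4.0.16 (robust quasi-likelihood, 4 group means in a fit for each follow-up), in R 4.3.3 with limma 3.58.1 and DESeq2 1.42.0, and Python 3.11.15 with numpy 2.4.6, pandas 2.3.3, scipy 1.17.1 and matplotlib 3.10.9. Genes passed at a Benjamini-Hochberg adjusted p under 0.05 over all genes tested. SE is the size of the log2 fold change divided by the root of its F statistic, and is not given where a group has no counts; there a bound is given against 3 counts over the group. The test was tested on simulated data. Alternatives were RLE scaling, TMM without the 20 most abundant genes, no filter, DESeq2, limma-voom without and with a random block on name prefix, fits of the 2 groups alone, the replicate block and each library left out; a subtracted receptor-gene background, and 1d-SHAM + 3 by single prefix, were chosen after seeing the data.

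The members and lists were chosen with earlier results of these data known. Values per library are given for members called in any comparison, the 3 of smallest p where none was called, and the 5 of highest level per length; genes of other lists are named when called in 7d-MI against 7d-SHAM or 1d-MI, at most 6 a list. *Ccl5*, *Cxcl9*, *Ccl28* and the genes too low to test at 3 days were described after their values were seen. The uncalled *Nfkbia*, *Tnf*, *Lta* and *Ltb*, with *Csf3* and the macrophage markers *Lyve1*, *Timd4*, *Cd163* and *Folr2*, were also named after their values were seen.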

Additional observations from a re-analysis of the deposited data

Results flagged for a closer look

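Among 82 groups of 4 libraries checked over 22 members, 9 held a library whose gap to the nearest other exceeded Dixon's limit at 95%. The nominal rate of about 1 in 20 cannot be set beside these 9. A group with counts in only 1 library always exceeds the limit, and some members were added after their values were seen. In replicate 3 of 7d-MI + 3, *Cxcl13* had 18.02 CPM (0.0371 to 0.13 in the other 3), *Cxcl15* 3.21 CPM (0 to 0.0434) and *Cxcl12* 59.9 CPM (33.8 to 37.3). Lung epithelium, B cell and lymphatic endothelium markers had their highest sums of that group in the same library, at 10.5, 10.8 and 112 CPM, and their part was not tested. *Cxcl9* had 13.2 CPM in replicate 1 of 1d-MI + 3 (0.469 to 1.63 in the other 3), the only library of its prefix. *Cx3cl1* had 0.814 CPM in replicate 4 of 7d-SHAM + 3 (0.279 to 0.358). *Cxcl12* had 23.0 CPM (18.2 to 18.8) and *Cxcl5* 0.106 CPM (0 in the other 3) in replicate 2 of 1d-SHAM + 3. *Cxcl13* had 0.124 CPM in replicate 2 of 7d-SHAM + 3 (0 in the other 3) and 0.177 CPM in replicate 3 of 1d-SHAM + 3 (0 to 0.0199). *Cxcl9*, *Cxcl13* and *Cxcl15* were added to this check after their values were seen.

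The MI effect at 3 days differed between the ages by the test of the difference itself for 4 ligands. The log2 difference was 2.94 for *Ccl2* (adjusted p = 0.0072), 2.27 for *Ccl7* (adjusted p = 0.024), 7.36 for *Ccl4* (adjusted p = 0.018) and 7.26 for *Cxcl14* (adjusted p = 0.037) with edgeR; the values of *Ccl4* and *Cxcl14* depend on the prior count, since 7d-SHAM + 3 has no count of either.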

How the results depend on the processing

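No named value changed its direction: of 913 values of 55 results for single genes, 790 kept their side of the threshold, 119 no longer passed and 4 newly passed. In 7d-MI + 3 against 7d-SHAM + 3, 15 ligands passed (12 to 15 with single libraries left out). *Ccl2*, *Ccl3*, *Ccl4*, *Ccl6*, *Ccl7*, *Ccl9*, *Ccl12*, *Cxcl5*, *Cxcl14* and *Cxcl16* passed in all 16 alternatives. In 1d-MI + 3 against 1d-SHAM + 3, 6 passed, but 10 without the filter, 1 with the 2 groups alone, 0 with the prefix as a random block, 0 with the 1d-SHAM + 3 libraries of prefix 1078 alone and 7 with those of prefix 1103, and 3 to 7 with a library left out (3 without replicate 3 of 1d-SHAM + 3). In 7d-MI + 3 against 1d-MI + 3, 11 passed (17 without the filter, 9 to 11 with a library left out). Between the 3-day shams 4 passed, against 11 without the filter, 7 with DESeq2, 2 with limma-voom, 0 with the prefix block, 7 with prefix 1078 alone and 1 with prefix 1103 alone, and 2 to 5 with a library left out (2 without replicate 2 of 1d-SHAM + 3 or replicate 3 or 4 of 7d-SHAM + 3). For the difference of MI effects 4 passed, against 10 without the filter, 2 with limma-voom, 0 with the prefix block and 1 with prefix 1103 alone, and 2 to 4 with a library left out. At 21 days the counts were 0, except 1 without the filter and 1 with DESeq2 in 1d-MI + 21 against 1d-SHAM + 21, and 0 to 4 with a library left out in 7d-MI + 21 against 7d-SHAM + 21, where 4 of 31 passed without replicate 1 of 7d-SHAM + 21, beside 21.6% of all genes. The causes were not tested.

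With the animal number as a replicate block 0 ligands passed in each of the 5 comparisons at 21 days. Libraries of the same number deviated together in 6 of 15 pairs (correlation over 0.1, median 0.05). Those of different numbers did so in 10 of 39 pairs (median -0.04). These few correlations cannot decide whether the numbers pair the samples. The 3-day labels carry letters and no such numbers. The prefix block could not be fitted at 21 days, where each group has 1 prefix. Depth limits the low ligands: *Cxcl3*, *Ccl4*, *Cxcl5* and *Cxcl14* have no count in 7d-SHAM + 3, and their size there is a bound.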
